A study of Homo sapiens with 4 samples.

Results

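Complement is a set of secreted and membrane proteins that marks and lyses cells and microbes, and 8 genes of it were followed here in MRC5 cells: C1R, C1S, C3, CFB, CFI, CD46, CD55 and CD59. They were taken by symbol from the 26255 genes listed for each of 4 RNA-seq libraries, and all 8 were found. MRC5, a human fibroblast cell line from fetal lung, is labelled as wild type and normal. The control group holds 2 libraries whose treatment label says none. The miRs group holds 2 libraries labelled as treated with miRs, that is microRNAs, short RNAs that pair with messenger RNAs and lower them. All titles read 48 h. Which microRNAs were used is not named in the labels, which also do not settle whether control cells received a negative-control microRNA, which the series title mentions. All groups are 1 cell line, and no label says whether replicates were grown separately. A p-value here sets a difference against the spread between these libraries, in part pooled over genes, and that spread may be technical. Values of a pair are given in the order replicate 1, replicate 2.

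Complement works as a cascade of proteases. In the classical route C1r activates C1s, which cleaves C4 and C2, and in the alternative route factor B, made from CFB, joins cleaved C3 into a convertase that cleaves more C3. Factor I, made from CFI, degrades cleaved C3 when a cofactor such as CD46 is present, CD55 takes convertases apart, and CD59 blocks assembly of the membrane attack complex. The liver makes most of the plasma proteins, while fibroblasts are known as a local source of C1r, C1s, C3 and factor B, which inflammatory cytokines and interferons induce.

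Values are FPKM, which counts fragments per kilobase of transcript, so that levels of different genes can be set side by side. How the libraries were scaled is not stated. The number of reads is unknown. Steps between low values showed that 1 fragment was worth 1.05, 0.899 and 1.03 times as much FPKM in control replicate 2, miRs replicate 1 and miRs replicate 2 as in control replicate 1. The 2 miRs libraries stood further apart than the 2 controls: 725 tested genes differed over 2-fold between the former and 71 between the latter. All 10 fibroblast markers were tested, with COL1A1 at 1910 to 4742 FPKM and VIM at 2249 to 3697 FPKM. Both miRs libraries lay below both controls in 4 of them, VIM, THY1, DCN and LUM (30.0% of all tested genes), and above in 1, S100A4 (29.5%). DCN was at 963 and 1223 against 352 and 419 FPKM, THY1 at 406 and 335 against 188 and 175 FPKM, and LUM at 112 and 169 against 41.7 and 70.9 FPKM. ACTB, at 5648 and 5619 FPKM in the control pair and 3022 and 3679 FPKM in the miRs pair, and GAPDH, at 6135 and 5526 against 4736 and 4421 FPKM, lay lower in miRs. Markers of blood cells and macrophages, which also make complement, were nearly absent: 10 of 11 were under 1 FPKM in every library and 4 were at 0 in all, with PTPRC at 0 to 0.0182 FPKM. Their sum without CD68 was 0.313 to 0.584 FPKM in the control pair and 0.699 to 1.16 FPKM in the miRs pair, while CD68, a lysosomal protein, was at 53.8 and 57.6 against 130 and 41.9 FPKM. Of 9 hepatocyte markers all were under 1 FPKM in every library, with sums of 0.0873 and 0.244 FPKM in the control pair and 0.952 and 0.407 FPKM in the miRs pair. Of 7 endothelial markers 6 were under 1 FPKM throughout. Of 7 epithelial markers, of which 4 were tested, 5 lay above both controls in both miRs libraries, EPCAM among them though not tested. The share over tested genes alone was 29.5%. The 7 markers had sums of 28.9 and 31.8 against 186 and 264 FPKM. KRT18 was the largest part of these sums, at 17.7 and 19.4 against 137 and 194 FPKM. CDH1 was at 0 in both miRs libraries, and ESRP1 was at 0 in all libraries. The part of other cell types in the results was not tested. In bulk RNA, fewer cells of a type and less RNA per cell cannot be told apart.

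The clearest differences in the 8 genes were higher levels of CFB, C3 and CD55 in both miRs libraries, by 10.3-fold, 22.8-fold and 1.76-fold in mean FPKM. The fold of CFB rests largely on miRs replicate 1, at 18.6 times the control mean, where miRs replicate 2 was at 2.08 times. None of the 3 passed the test across all genes, and C3 was too low to enter it. C1R, C1S and CD59, the most abundant of the 8, overlapped between the groups, CD46 was 1.08-fold higher, and CFI was at the edge of detection. The test took in genes averaging 1 FPKM or more across the 4 libraries, which kept 6 of the 8 and left out C3 and CFI. In limma on log2(FPKM + 1), 0 of the 6 passed an adjusted p of 0.05, as against 0.245% of all 11860 tested genes, and 1, CD55, had an unadjusted p under 0.05 (24.2% of all). Both miRs libraries lay above both controls in 3 of the 6, CFB, CD46 and CD55 (29.5% of all tested genes), and below them in 0 (30.0%). The 6 had a median log2 difference of 0.01, where all tested genes had 0.00. In these 6 genes the direction of difference was thus mixed.

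**Figure D1:**
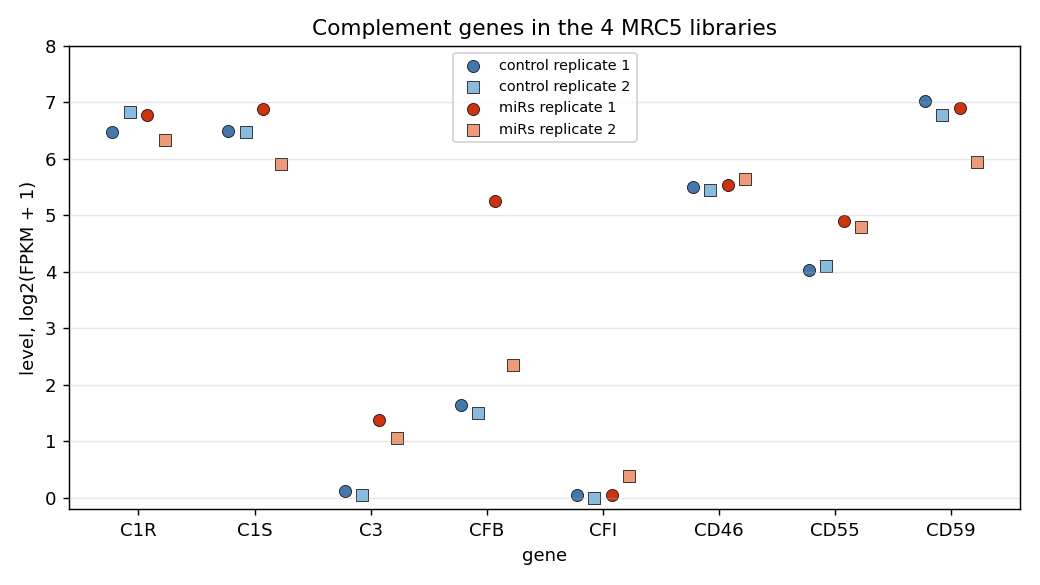
Level of each of the 8 genes as log2(FPKM + 1), 1 point per library (2 control, 2 miRs). C3, CFB, CD46 and CD55 have both miRs points above both controls. C1R, C1S and CD59 have miRs replicate 2 as their lowest point, and C1S, C3, CFB and CD55 have miRs replicate 1 as their highest.

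By level in control, CD59 came first at 119 ± 14.4 FPKM (SD, n = 2), followed by C1R at 100.3 ± 17.7, C1S at 88.6 ± 1.06, CD46 at 43.6 ± 1.33, CD55 at 15.8 ± 0.549 and CFB at 1.99 ± 0.201 FPKM, with C3 and CFI last. C1R, at 87.8 and 113 FPKM, overlapped both CD59 and C1S, while CD59 lay above C1S in both controls. Every other step down to C3 left a gap between the values of neighbouring genes. In miRs the top 3 all overlapped, at means of 94.5 FPKM for C1R, 89.3 for CD59 and 88.3 for C1S. CFB, from 4.14 to 37.0 FPKM, overlapped CD55 there, from 26.9 to 28.8 FPKM. These orders describe 2 libraries per group.

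C1R and C1S encode the proteases of the first complement component, and they neighbour each other on chromosome 12 in RefSeq's GRCh38.p14. C1R was at 87.8 and 113 FPKM in the control pair and at 109 and 79.99 FPKM in the miRs pair. C1S was at 89.3 and 87.8 FPKM in the control pair and at 117 and 59.1 FPKM in the miRs pair. In C1S the miRs values spanned the controls, with replicate 1 on the higher and replicate 2 on the lower side. In C1R replicate 2 of miRs was the lowest value and replicate 1 lay between the controls. The log2 difference was −0.09 ± 0.22 (SE) for C1R and −0.09 ± 0.34 for C1S (adjusted p = 0.827 and 0.893 in limma). The ratio of C1R to C1S within a library was 0.983 and 1.28 in control and 0.929 and 1.35 in miRs, so it was closer to 1 in both first replicates. The spread in C1S rests on single libraries: without miRs replicate 1 its log2 difference was −0.58 (adjusted p = 0.0201), and without miRs replicate 2 it was 0.40 (adjusted p = 0.0346). In these reduced fits the lone miRs library was assumed to vary like the controls, and 2191 and 3906 genes of the whole table passed (18.6% and 33.1%).

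The genes upstream of and beside these proteases were mostly low. C1QA, C1QB and C1QC, which encode the recognition subunits of the first component, were listed at 0 in all 4 libraries. C2, the substrate of C1s that resembles factor B, was at 0.938 and 0.387 FPKM in the control pair and 1.91 and 0.549 FPKM in the miRs pair. C4A and C4B, near-identical copies whose split is uncertain, stayed between 0 and 0.290 FPKM. SERPING1, the inhibitor of C1r and C1s, was at 22.7 and 12.9 FPKM in the control pair and at 51.9 and 22.3 FPKM in the miRs pair (log2 difference 0.95 ± 0.48, adjusted p = 0.301 in limma), with overlapping groups. Its log2 difference was 0.36 (adjusted p = 0.454) without miRs replicate 1 and 1.54 (adjusted p = 0.0310) without miRs replicate 2. The summed FPKM of C1R and C1S was 7.79 and 15.6 times that of SERPING1 in control and 4.37 and 6.23 times in miRs, with both miRs ratios below both control ratios. C1RL, a related protease next to C1R, was at 7.999 and 11.7 against 9.57 and 14.1 FPKM.

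CFB, which encodes the protease of the alternative pathway's C3 convertase, had the widest range of the 8 genes on the log2(FPKM + 1) scale, which compresses C3. It was at 2.13 and 1.85 FPKM in the control pair and at 37.0 and 4.14 FPKM in the miRs pair. Both miRs values lay above both controls, and miRs replicate 1 was 8.95 times miRs replicate 2. The mean was 1.99 ± 0.201 FPKM in the control pair and 20.6 ± 23.3 FPKM in the miRs pair (SD, n = 2 each), a log2 difference of 2.23 ± 0.96 (SE; limma, adjusted p = 0.248). Without miRs replicate 1 the difference was 0.78 and without miRs replicate 2 it was 3.67. Leaving out control replicates 1 and 2 gave 2.29 and 2.16. The gap of 2.89 (log2) between the 2 miRs libraries was exceeded by 0.481% of tested genes. In RefSeq CFB lies on chromosome 6 with C2 and C4A among its near neighbours.

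The promoter of CFB is shown because the gene had the largest difference of the 6 tested genes and holds several motifs of cytokine-responsive factors in a short window. The window is chr6:31945845-31946144 of GRCh38.p14, plus strand, from RefSeq, 250 bases before to 50 after the annotated start, whereas the expression files use hg19. The promoter of CD55 (chr1:207321428-207321727, plus strand) is shown beside it as the member whose 2 miRs libraries lay close together. Capitals mark matches, 5′ to 3′:
CFB: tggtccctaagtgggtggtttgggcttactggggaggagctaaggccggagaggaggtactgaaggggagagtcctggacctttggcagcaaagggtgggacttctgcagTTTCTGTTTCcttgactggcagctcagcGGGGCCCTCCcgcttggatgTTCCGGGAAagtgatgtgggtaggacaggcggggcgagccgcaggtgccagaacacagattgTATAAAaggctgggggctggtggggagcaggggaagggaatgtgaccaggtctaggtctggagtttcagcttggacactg
CD55: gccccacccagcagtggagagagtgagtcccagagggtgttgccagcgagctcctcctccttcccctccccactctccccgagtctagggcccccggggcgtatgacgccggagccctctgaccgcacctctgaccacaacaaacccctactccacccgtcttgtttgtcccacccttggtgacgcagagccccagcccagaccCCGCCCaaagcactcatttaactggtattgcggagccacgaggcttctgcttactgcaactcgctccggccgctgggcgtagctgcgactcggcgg
Across both strands 6 motifs were searched: the interferon-stimulated response element (TTTC and TTTC with 2 bases of any kind between), the interferon-gamma activated site called GAS (TTCNNNGAA), the NF-kB consensus, the C/EBP site (TTGCNNAA), the TATA box (TATAAA) and the GC box (GGGCGG). CFB held, from the distal side, TTTCTGTTTC, the NF-kB match GGGGCCCTCC, the GAS match TTCCGGGAA and TATAAA, whose first letters lie 140, 112, 92 and 30 bases before the start, with no overlap between them. CD55 held 1 GC box on the minus strand, 46 bases before the start. Of 35116 such windows of all genes, 3.57% held the interferon-stimulated element, 7.66% the GAS motif, 11.3% the NF-kB motif, 10.5% the C/EBP motif, 11.5% the TATA box and 44.95% the GC box. Of the 8 genes 6 had at least 1 window in the table. A GAS match also stood in 1 of 2 C1R windows (TTCCTGGAA) and in 2 of 4 CD59 windows (TTCTCAGAA), which overlap and share this 1 site. C/EBP matches stood in both C1R windows (TTATGCAA and TTGCTGAA) and in 1 CD59 window (TTAGGCAA and TTGCTCAA). A match is a run of letters and no evidence of binding.

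C3, the component on which all routes converge, was at 0.0833 and 0.0350 FPKM in the control pair and at 1.60 and 1.09 FPKM in the miRs pair. Both miRs values lay far above both controls, yet at a low level. Its mean over the 4 libraries was below the minimum, so it was not tested. Once divided by the relative worth of a fragment, the 4 values stood in the ratio 5 to 2 to 107 to 64, each within 0.05 of a whole number. If these are single fragments, C3 had 7 in control and 171 in miRs. After correction for the unequal worth of a fragment between libraries the ratio was 22.9, with an exact 95% interval from 10.9 to 57.7 that covers counting error only. With no minimum FPKM the log2 difference was 1.14, which understates the change of so low a gene, with an adjusted p of 0.118 in limma.

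CFI, whose product inactivates cleaved C3, gave 0 FPKM for control replicate 2 and 0.0419 FPKM for control replicate 1, and 0.0377 and 0.301 FPKM in the miRs pair. Once divided by the relative worth of a fragment, control replicates 1 and 2 and miRs replicates 1 and 2 stood in the ratio 1 to 0 to 1 to 7. No fold is therefore given. CFI did not separate the groups. CFD, the protease that cleaves factor B, was at 1.20 and 0.451 against 1.31 and 1.06 FPKM.

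The membrane regulators protect the cell's own surface, and the 3 of them had log2 differences of either sign. CD55, the decay-accelerating factor, was at 15.4 and 16.2 FPKM in the control pair and at 28.8 and 26.9 FPKM in the miRs pair. The groups were well apart and the replicates close. The mean was 15.8 ± 0.549 FPKM in the control pair and 27.9 ± 1.37 FPKM in the miRs pair (SD, n = 2 each), a log2 difference of 0.78 ± 0.12 (SE). Its adjusted p was 0.0794 in limma, above the threshold, from an unadjusted p of 0.00206. Leaving out miRs replicate 1 gave 0.0156 and leaving out miRs replicate 2 gave 0.0110, but leaving out control replicates 1 and 2 gave 0.645 and 0.590, while the log2 difference kept between 0.73 and 0.83.

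CD46, the membrane cofactor protein with which factor I cleaves C3b, was at 44.6 and 42.7 FPKM in the control pair and at 45.3 and 49.2 FPKM in the miRs pair. Both miRs values were higher, by little: the log2 difference was 0.11 ± 0.13 (adjusted p = 0.614 in limma). CD59, the inhibitor of the membrane attack complex, was at 129 and 109 FPKM in the control pair and at 118 and 60.3 FPKM in the miRs pair. Its replicate 2 of miRs was the lowest value and replicate 1 lay between the controls. The log2 difference was −0.49 ± 0.35 (adjusted p = 0.435 in limma). Without miRs replicate 1 it was −0.96 (adjusted p = 0.0127), and without miRs replicate 2 it was −0.01 (adjusted p = 0.980).

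Within the summed FPKM of CD46, CD55 and CD59, CD55 made up 8.14% and 9.64% in control and 15.0% and 19.7% in miRs. CD59 made up 68.3% and 64.9% in control and 61.5% and 44.2% in miRs, and CD46 23.5% and 25.4% against 23.5% and 36.1%. The ratio of CD59 to CD55 was 8.40 and 6.73 in control and 4.10 and 2.24 in miRs. The balance thus differed between the groups through CD55 in both miRs libraries and through CD59 in replicate 2. The sum itself was 189 and 168 FPKM in the control pair and 192 and 136 FPKM in the miRs pair, with overlap. CD46 and CD55 lie in 1 neighbourhood of chromosome 1 in RefSeq, with CR2, CR1 and CR1L between them. CR1, a regulator and receptor of that neighbourhood, was listed at 0 in every library but control replicate 1, where it was at 0.00976 FPKM.

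**Figure D2:**
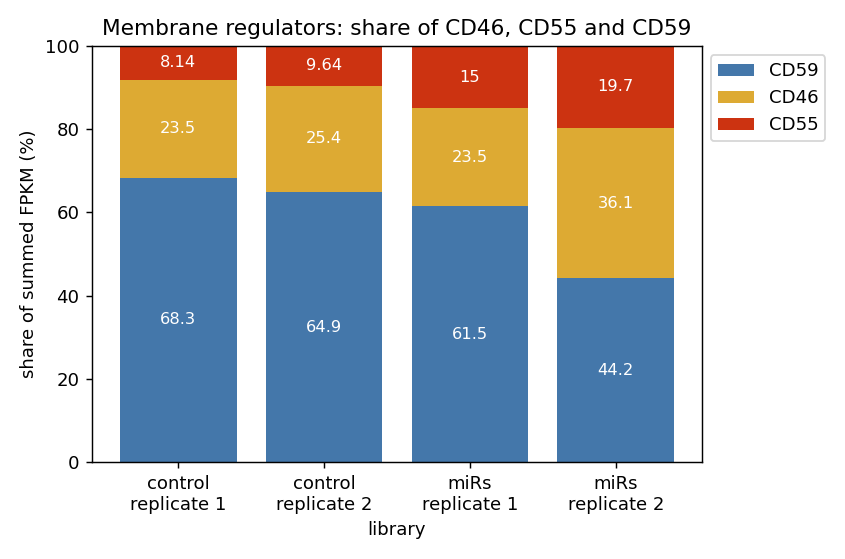
Share of CD59, CD46 and CD55 in their summed FPKM (%), 1 stacked bar per library. CD55 takes 8.14% and 9.64% in the controls and 15.0% and 19.7% in the miRs libraries, and CD59 is lowest, at 44.2%, in miRs replicate 2.

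**Figure D3:**
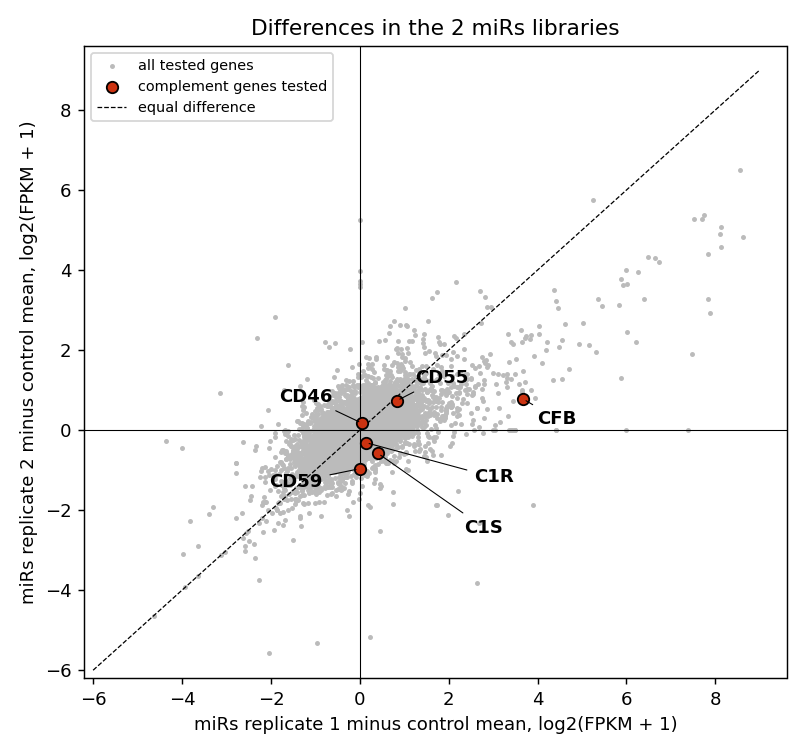
Difference of miRs replicate 1 (x) and miRs replicate 2 (y) from the mean of the controls, log2(FPKM + 1), for all tested genes (grey) and the 6 tested complement genes (red), with the line of equal difference dashed. CD55 and CD46 lie near that line, while CFB lies far to the right of it, at 3.67 against 0.78. Both axes share the control mean.

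The wider pathway was described by 61 symbols in 7 lists, of which 60 were in the files, 17 were tested and 23 were at 0 in all libraries. Of the 17 tested genes 0 passed over all genes (0.245% of all tested), 2 higher and 2 lower had an unadjusted p under 0.05 (11.2% and 13.0% of all), and 5 lay above and 3 below both controls (29.5% and 30.0%). Without miRs replicate 1 and without miRs replicate 2, 7 and 8 of these genes passed, where 18.6% and 33.1% of all genes did. The median log2 difference of the 17 was 0.24, and 0.25 over the 11 that are not among the 8 genes. Taken by library, both sets had a median of 0.37 for miRs replicate 1 but −0.06 for replicate 2, so the sign differed between the libraries. COLEC12, a scavenger receptor with a collectin domain, was at 2.49 and 4.88 FPKM in the control pair and 8.56 and 16.2 FPKM in the miRs pair (log2 difference 1.499 ± 0.39, adjusted p = 0.127 in limma). Its difference was 1.92 (adjusted p = 0.0186) without miRs replicate 1 and 1.08 (adjusted p = 0.0702) without miRs replicate 2. MASP1, a protease of the lectin pathway, was at 41.4 and 56.2 against 8.59 and 33.7 FPKM (log2 difference −1.43 ± 0.64, adjusted p = 0.259), at −0.50 (adjusted p = 0.134) without miRs replicate 1 and at −2.36 (adjusted p = 0.00546) without miRs replicate 2. COLEC10, a collectin, overlapped at 5.31 and 2.53 against 5.95 and 3.54 FPKM.

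CLU and C7, which act on the last steps of the cascade, were lower in both miRs libraries. CLU encodes clusterin, which binds the membrane attack complex in fluid, and was at 186 and 163 FPKM in the control pair and 86.8 and 115 FPKM in the miRs pair (log2 difference −0.79 ± 0.19, adjusted p = 0.108 in limma). Without miRs replicates 1 and 2 its adjusted p was 0.0291 and 0.010004. C7, a subunit of that complex, was at 3.10 and 1.97 FPKM against 1.16 and 0.752 FPKM (log2 difference −0.84 ± 0.25, adjusted p = 0.146). C5, which starts the complex, was at 0.733 and 0.639 against 0.407 and 0.272 FPKM and was not tested, and C8A, C8B and C9 were listed at 0 in all libraries.

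Among receptors, C3AR1, which binds the C3a fragment, was listed at 0 in control replicate 1, at 0.0492 FPKM in control replicate 2 and at 2.36 and 0.385 FPKM in the miRs pair. Once divided by the relative worth of a fragment, these values stood in the ratio 0 to 1 to 56 to 8. C3AR1, named after its values were seen, was too low to be tested. C1QBP, a mainly mitochondrial protein that binds C1q, was at 87.8 and 86.2 against 132 and 88.4 FPKM (log2 difference 0.31, adjusted p = 0.438 in limma). Its difference was 0.02 (adjusted p = 0.889) without miRs replicate 1 and 0.60 (adjusted p = 0.0154) without miRs replicate 2. CALR, the chaperone calreticulin, was at 1020 and 964 FPKM in the control pair and 1011 and 622 FPKM in the miRs pair (adjusted p = 0.487), and its difference was −0.67 (adjusted p = 0.0133) without miRs replicate 1 and 0.03 (adjusted p = 0.835) without miRs replicate 2. CR2, ITGAM and VSIG4, receptors of blood cells, were listed at 0 in all libraries.

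**Figure D4:**
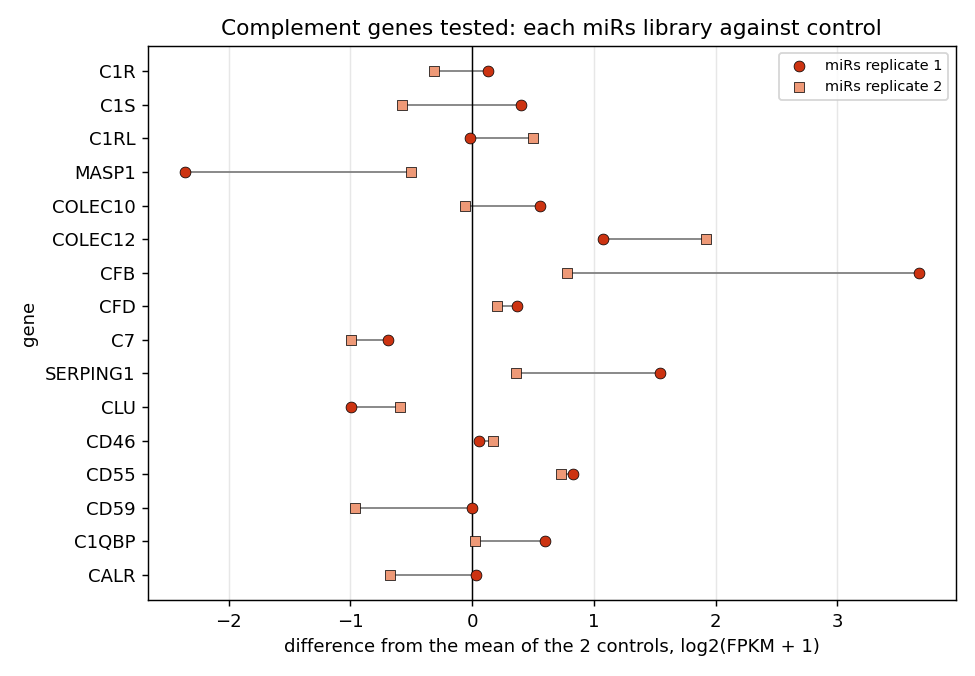
Difference of each miRs library from the mean of the controls, log2(FPKM + 1), for tested genes of the complement lists (1 is not drawn), with a line joining the 2 libraries of a gene. CFB, COLEC12, CD55 and SERPING1 are to the right of 0 in both libraries, and MASP1, C7 and CLU to the left, while C1R, C1S and COLEC10 straddle 0.

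Signals known to induce complement genes were described by 29 symbols, of which 24 were tested and 0 passed in limma. Of the 24, 6 higher and 4 lower had an unadjusted p under 0.05 (11.2% and 13.0% of all tested genes), and 11 lay above and 5 below both controls (29.5% and 30.0%). The median log2 difference was 0.28, and 0.13 without miRs replicate 1. IRF9 and STAT2 encode transcription factors of interferon signalling. IRF9 was at 15.9 and 22.1 against 58.6 and 45.8 FPKM (log2 difference 1.42 ± 0.22, adjusted p = 0.0769), and STAT2 at 22.4 and 28.8 against 74.6 and 49.8 FPKM (adjusted p = 0.0940). IL6, a cytokine that drives acute phase genes, was at 3.01 and 3.25 FPKM in the control pair and 26.9 and 6.18 FPKM in the miRs pair (log2 difference 1.78 ± 0.66, adjusted p = 0.202). Like CFB, STAT2, IRF9 and IL6 were higher in miRs replicate 1 than in miRs replicate 2, and their part in the level of CFB was not tested.

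Other genes of the same list were lower in miRs. RELA, the NF-kB subunit, was at 35.5 and 36.1 FPKM in the control pair and at 15.4 and 11.95 FPKM in the miRs pair (log2 difference −1.34 ± 0.16, adjusted p = 0.0632 in limma). LIF, a cytokine of the IL-6 family, was at 20.6 and 19.4 against 5.76 and 7.23 FPKM (log2 difference −1.49 ± 0.15, adjusted p = 0.0632). IL1R1, the interleukin-1 receptor, was higher, at 9.87 and 11.4 against 19.3 and 21.2 FPKM (log2 difference 0.87 ± 0.14, adjusted p = 0.0809), and NFKB1 overlapped, at 9.24 and 9.20 against 10.04 and 7.51 FPKM. Without miRs replicate 1 the log2 difference was −1.51 for RELA, −1.35 for LIF and 0.94 for IL1R1. It was 1.24 for IRF9, 0.94 for STAT2 and 0.80 for IL6. Without miRs replicate 2 the values were −1.16, −1.63, 0.80, 1.59, 1.52 and 2.76 in the same order. Leaving out control replicate 1 gave −1.35, −1.45, 0.77, 1.19, 1.06 and 1.74. Leaving out control replicate 2 gave −1.32, −1.53, 0.97, 1.64, 1.41 and 1.82.

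**Figure D5:**
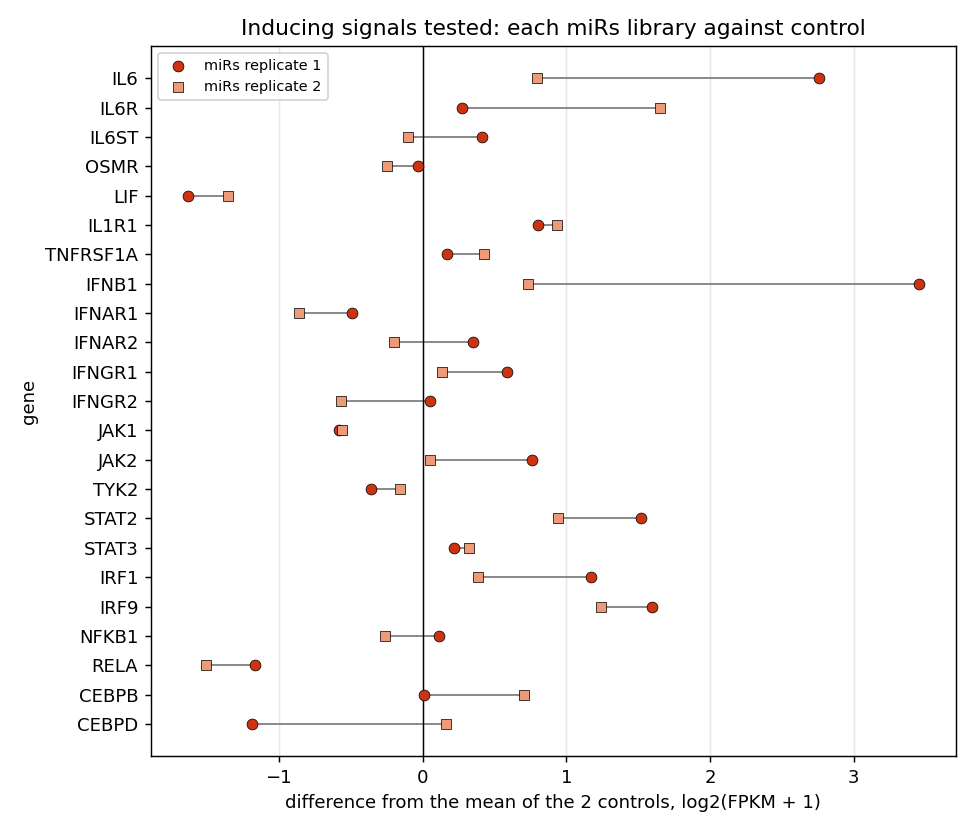
Difference of each miRs library from the mean of the controls, log2(FPKM + 1), for tested genes of the list of inducing signals (1 is not drawn), with a line joining the 2 libraries of a gene. STAT2, IRF9, IL6 and IL1R1 are to the right of 0 in both libraries, and RELA, LIF and JAK1 to the left.

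Acute phase proteins, the group of secreted defence proteins to which C3 and factor B belong, were mostly undetected: 11 of 19 were listed at 0 in all libraries and 4 were tested. Of these 4, 0 passed in limma, 0 had an unadjusted p under 0.05 (24.2% of all), 2 lay above both controls (29.5% of all tested genes) and 0 below. The median log2 difference was 0.42, but 0.72 without miRs replicate 2 and −0.10 without miRs replicate 1, where 3 were tested. PTX3, a pentraxin that binds C1q, was at 111 and 92.5 FPKM in the control pair and 227 and 112 FPKM in the miRs pair (log2 difference 0.65 ± 0.36, adjusted p = 0.341). Its difference was 0.14 (adjusted p = 0.508) without miRs replicate 1 and 1.15 (adjusted p = 0.0103) without miRs replicate 2. A2M, a protease inhibitor, was at 11.2 and 4.88 against 5.31 and 3.67 FPKM. TFPI2, another protease inhibitor, was at 17.0 and 6.16 against 58.5 and 9.59 FPKM, and CP, ceruloplasmin, at 0.884 and 0.880 against 1.30 and 0.998 FPKM.

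For each tested gene of the 8 that ranged over at least 0.5 (log2) across the 4 libraries, the 3 genes with the closest profile were taken, by the root mean square distance of log2(FPKM + 1) centred on each gene's mean. For CFB these were HRASLS2 (distance 0.0904), IFNB1 (0.101) and TNFSF13B (0.126). IFNB1, which encodes interferon beta, read 9.95 and 0.660 FPKM in the miRs pair and had listed values of 0 in the control pair. For CD55 they were SNORA61 (0.0167), a small nucleolar RNA that such libraries capture poorly, ANKZF1 (0.0276) and EXOSC8 (0.0309). For CD59 they were SLC1A1 (0.0207), PPP4R4 (0.0418) and FAM3C (0.0595), and for C1S they were HIST2H2BE (0.0371), UBE2T (0.0407) and IL7R (0.0423). With 4 points per profile and 11860 tested genes, close matches describe these libraries only. C1R and CD46 ranged over less than 0.5, and C3 and CFI were not tested.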

How the data were processed

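RNA-seq covered 2 control and 2 miRs libraries of MRC5 cells, grouped by their treatment label and numbered as in their titles. A stranded TruSeq mRNA kit was used on RNA from an RNeasy kit, per the labels' protocols. Cuffdiff 2.2.1, TopHat2 2.1.1, SAMtools 0.1.18, Bowtie2 2.2.8 and the build hg19 stand in the submitters' processing notes. The sources used here do not give annotation, strand setting or library scaling. Per the file headers, values are FPKM as deposited, 1 for each gene in a library. Read numbers are unknown and whole reads were not recovered.

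The test was limma 3.58.1 (R 4.3.3) with a variance trend, miRs minus control, for genes averaging 1 FPKM or more, on log2(FPKM + 1), 2-sided, Benjamini-Hochberg adjusted over all genes. The script was tested on simulated data. The 8 genes, 9 gene lists and 5 marker lists were chosen with earlier results of these data known. The text names the 8 genes, up to 6 tested genes per list by smallest p, fixed genes (C2, C4A, C4B, SERPING1, CFD, C5, CLU, IL6, NFKB1 and others not reported here), 3 closest profiles per gene and 4 checks. Other names are given by count or chosen after their values were seen. An exact permutation test of 2 against 2 cannot go below p = 0.333, so none was run. Promoter windows came from RefSeq (GRCh38.p14). Tables and figures used Python 3.11.15, pandas 2.3.3 and matplotlib 3.10.9.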

Additional observations from a re-analysis of the deposited data

How the results depend on the processing

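Over all tested genes 29 passed in limma. The count was 0 with no minimum FPKM (3338 genes at an unadjusted p under 0.05), 6 with quantile normalization, 99 with the replicate block, and 0 to 3906 with 1 library left out. In the alternatives that kept all 4 libraries, 0 of the 8 genes passed. These were the replicate block, quantile normalization, no variance trend, a pseudocount of 0.1 and the minimum set to 5 FPKM or dropped. Rescaling by median of ratios was another, which could change little, as its factors were 0.998 to 1.004. In each of these settings 1 or 2 of the genes had an unadjusted p under 0.05 in limma. So did 2128 of 8444 genes with the minimum at 5 FPKM and 3338 of 17682 with none. In the rest 2843 to 3055 genes did, of 11857 or 11860 tested. Of the 6 tested genes 3 lay above both controls in the main setting (29.5% of all tested genes). In the alternatives 2 to 4 lay above every control, of 6 tested genes or, with no minimum FPKM, of 8. The shares of all genes in those alternatives were not counted. Of the complement lists 1 gene passed with the replicate block (COLEC12, adjusted p = 0.0488 in limma) and 0 in the other settings that kept all libraries. No label says whether a control and a miRs library of the same replicate number belong together. The differences between replicates 1 and 2 had r = 0.201 between the groups across 11860 genes, which are not independent. With 1 library left out the log2 difference changed sign for C1R (−0.31 to 0.13), C1S (−0.58 to 0.40), C1RL (−0.016 to 0.50), COLEC10 (−0.17 to 0.67), CALR (−0.67 to 0.029), TFPI2 (−0.10 to 2.39), NFKB1 (−0.26 to 0.11), COL1A1 (−0.35 to 0.97), HIST2H2BE (−0.61 to 0.46), UBE2T (−0.51 to 0.46), IL7R (−0.65 to 0.44) and CFD (−0.014 without control replicate 2). The cause was not tested. CFB, CD46, CD55 and CD59 kept their sign in all 11 alternatives. The planned count test was not run, because FPKM gave no whole reads.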
